A study of Mus musculus with 16 samples.

Results

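Expression of 9 genes of the GABAergic lineage was examined in the embryonic day (E)15.5 mouse cortex: the homeobox genes *Dlx1*, *Dlx2* and *Dlx5*, the noncoding gene *Dlx6os1*, the zinc finger factors *Sp8* and *Sp9*, and the GABA synthesis and transport genes *Gad1*, *Gad2* and *Slc32a1*. They were picked by name, with earlier results of these data known. They are 9 of 51912 listed genes, of which 27394 had a count. The name *Dlx6os1* belongs to 2 identifiers, and the gene-length one was used, without the short misc_RNA entry inside it. Bulk UMI RNA-seq of micro-dissected cerebral cortex gave 16 libraries from 15 mice. The 4 cKO mice were *Knl1* fl/fl;*hGFAP-Cre* (*Knl1* is named *Casc5* in the labels), and the 4 dKO mice carried floxed *Trp53* alleles (fl/fl) as well as the *Knl1* fl/fl and *hGFAP-Cre* alleles of the cKO. At *Knl1*, 5 of the 7 ctrl mice were wild type and 2 (T4 and T5) heterozygous, and wild-type ctrl mice below are wild type in this sense. No *Trp53* genotype of single ctrl or cKO mice was used here. Whether ctrl mice carried the Cre transgene is not given in the sources used here. The *hGFAP-Cre* transgene recombines in neural progenitor cells (NPCs) of the cortex from mid-gestation, and cells outside that lineage keep the floxed genes.

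Cortical interneurons are not born in the cortex. They arise in the ganglionic eminences of the ventral forebrain, where DLX factors specify the GABAergic fate and switch on the genes for making GABA, and they then migrate into the cortex, where they are already present at mid-gestation. The DLX genes come in neighboring pairs that share enhancers, and they keep acting in migrating cells and in striatal neurons, which are GABAergic too. In bulk tissue, fewer or more cells of a type and less or more RNA per cell cannot be told apart.

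Total counts ranged from 399832 to 3266227 in ctrl mice, from 4178461 to 8800987 in cKO mice and from 552186 to 5396803 in dKO mice, so that every cKO mouse was sequenced more deeply than every ctrl mouse. The unit CPM stands for a count per library of 1000000 after TMM scaling over all mice, and 3 counts are 7.50 unscaled CPM in ctrl mouse T3 and 0.341 in cKO mouse S2. *Knl1* itself was at 48.7 to 80.0 CPM in ctrl, 50.004 to 80.4 in cKO and 33.4 to 58.2 in dKO, and *Trp53* at 15.6 to 47.0, 24.0 to 33.3 and 19.8 to 32.3 CPM. Neither passed an FDR of 0.05 in any comparison of edgeR's likelihood ratio test. These are totals over all exons, and which exons the floxed alleles lose is not given in the sources used here, so they do not check the labels. *Eomes* and *Emx1*, of the cortical progenitor lineage that the Cre targets, fell in cKO (log2 fold change −1.128 and −0.84; edgeR, FDR = 5.06e-06 and 0.0194).

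Most of the 9 genes sit on chromosome 2. In GRCm38 (GENCODE M21), *Dlx1* lies at chr2:71528113-71533981 (+ strand) and *Dlx2* at chr2:71543408-71546754 (− strand), tail to tail, with *Gad1* (chr2:70553072-70602014), *Sp9* (chr2:73271925-73284706), *Gad2* (chr2:22622205-22693874) and *Slc32a1* (chr2:158610767-158615748) on the + strand of the same chromosome. *Dlx5* (chr6:6877805-6882085) and *Dlx6os1* (chr6:6820189-6871592) are neighbors on the − strand, and *Sp8* is at chr12:118846329-118852576 (+ strand). Of the 9 genes, 8 had an entry among RefSeq promoters of GRCm38.p6, with 11 start sites. The letters TAATTA, the core bound by many homeodomain proteins, which reads the same on both strands, were searched in the 250 bases before each start site. They were present in 4.85% of 32817 promoters and in 3 of the 11 windows of these genes, which belonged to *Dlx6os1* and *Sp8*. A match is a description of letters and not a binding site. The upstream stretches of 4 of the genes whose levels are compared below follow, 5′ to 3′ on the gene's strand, without bases inside annotated exons and with TAATTA in capitals. *Dlx6os1* and *Gad2* are shown as the pair whose levels ran most closely together over the mice, *Gad1* as the gene that passed the test, and *Dlx2* as the *Dlx* gene with the smallest difference between cKO and ctrl.
Dlx6os1 chr6:6861684-6861933 (− strand, an internal start site): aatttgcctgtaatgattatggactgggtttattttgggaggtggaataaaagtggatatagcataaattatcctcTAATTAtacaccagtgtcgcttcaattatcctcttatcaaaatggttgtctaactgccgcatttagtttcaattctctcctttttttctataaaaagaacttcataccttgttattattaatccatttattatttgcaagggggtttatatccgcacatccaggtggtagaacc
Gad2 chr2:22622077-22622204 (+ strand): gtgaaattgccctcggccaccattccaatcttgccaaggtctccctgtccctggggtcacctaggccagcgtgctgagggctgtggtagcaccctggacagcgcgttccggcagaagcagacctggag
Gad1 chr2:70561879-70562041 (+ strand): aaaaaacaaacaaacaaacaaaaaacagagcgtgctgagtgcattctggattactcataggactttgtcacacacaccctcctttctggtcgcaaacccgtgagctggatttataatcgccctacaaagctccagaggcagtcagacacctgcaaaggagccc
Dlx2 chr2:71546755-71547004 (− strand): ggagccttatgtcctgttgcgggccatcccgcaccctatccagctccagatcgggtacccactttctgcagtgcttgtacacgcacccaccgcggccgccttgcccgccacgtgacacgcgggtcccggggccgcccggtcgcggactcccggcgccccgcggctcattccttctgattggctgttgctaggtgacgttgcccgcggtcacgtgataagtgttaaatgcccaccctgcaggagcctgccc
The *Dlx6os1* stretch had a GC content of 34% and held 1 TAATTA, 174 bases before the start site. The stretches of *Gad2* (62.5% GC), *Gad1* (46.6% GC) and *Dlx2* (66.4% GC) held none. That of *Gad1* also belongs to an internal start site and lies inside the span of the gene. With exon bases left out, its last base is 88 bases before that start site, and the last base of the *Gad2* stretch is 123 bases before its own. The second start site of *Dlx6os1* had the letters 130 and 74 bases upstream, inside an annotated exon, and 1 start site of *Sp8* had them 188 bases upstream.

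Per kb of exon, *Dlx6os1* and *Gad2* had the highest levels of the 9 genes in all groups. The study's methods do not say whether reads from introns were counted. Reads on no feature made up 5.86% (library S2) to 13.3% (library F7). If intron reads were counted, exon length is not the matching divisor, and genes with long introns gain in this order. The part of introns in the order was not tested. In ctrl, the mean level was 82.4 ± 19.1 CPM per kb for *Dlx6os1* and 46.6 ± 9.62 for *Gad2* (SD, n = 7), followed by *Dlx2* (16.1 ± 7.58), *Gad1* (15.7 ± 3.16), *Dlx1* (10.7 ± 3.65) and *Dlx5* (7.68 ± 4.06). *Slc32a1*, the vesicular GABA transporter (4.83 ± 1.56), *Sp9* (4.68 ± 1.78) and *Sp8* (2.56 ± 0.771) were lowest. The ranges of neighbors in this order overlapped over the ctrl mice in every case. Within a mouse the order was steadier: *Dlx6os1* was above *Gad2*, and *Gad2* above *Dlx2*, in 7 of 7 ctrl mice, whereas *Dlx2* was above *Gad1* in 3 of 7 and *Slc32a1* above *Sp9* in 2 of 7. In cKO, *Gad1* (23.8 ± 3.00 CPM per kb, n = 4) was above *Dlx2* (18.2 ± 2.43) in 4 of 4 mice with no overlap of their ranges. *Sp8* was last in every group, at 2.09 ± 0.760 CPM per kb in cKO and 1.59 ± 0.268 in dKO.

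**Figure D1:**
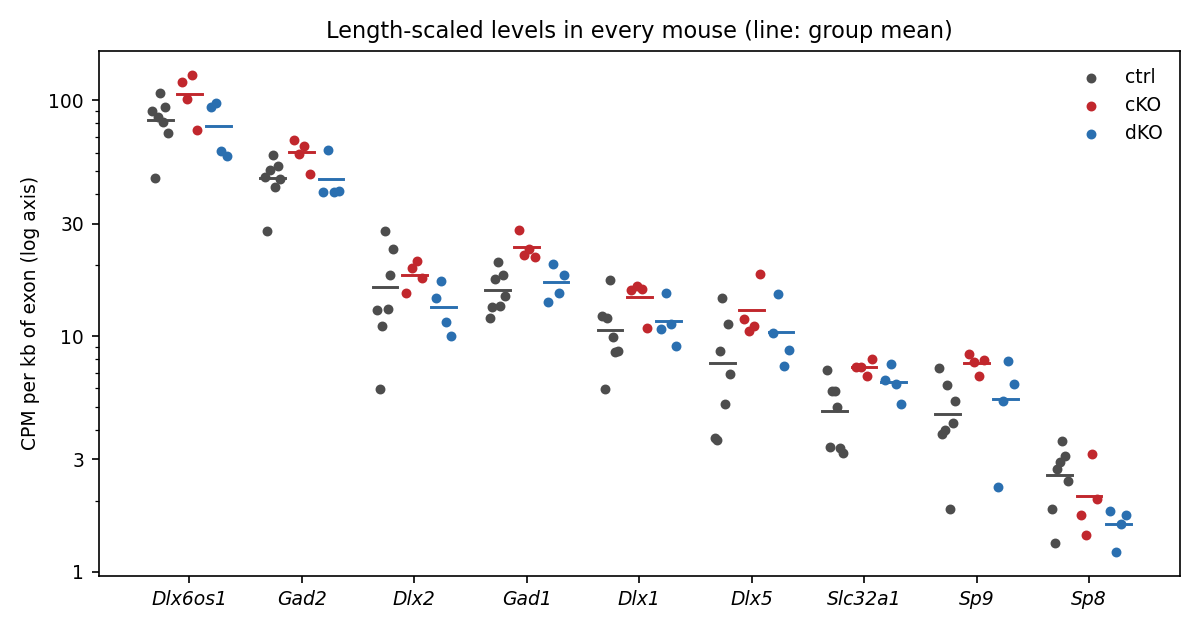
CPM per kb of exon (log axis) of each gene in every mouse, ordered by the ctrl mean, with 1 point per mouse in ctrl (7), cKO (4) and dKO (4) and a line at the group mean. *Dlx6os1* (82.4 in ctrl) and *Gad2* (46.6) lie above the other genes, and *Sp8* (2.56) is lowest.

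The cKO versus ctrl comparison asks which RNAs of the cortex differ once *Knl1* is deleted from cortical NPCs. *Gad1* rose 1.48-fold in cKO, and it was the single gene of the 9 to pass an FDR of 0.05 (edgeR likelihood ratio test over all 51912 listed genes, of which 0.0578% were called higher and 0.16% in either direction). Of the 9 genes, 8 had a log2 fold change above 0, as had 25.5% of all listed genes and 60.0% of the 9178 genes with a mean of 10 CPM or more. At an unadjusted p below 0.05, 7 of 9 were higher and none lower, against 1.97% of all listed genes and 7.06% of those at 10 CPM or more. The median log2 fold change was 0.43, and that of all genes at 10 CPM or more was 0.041. Because the 9 genes were chosen with earlier results of these data known, these shares describe the set and are no independent test of it.

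*Gad1* and *Gad2* encode the pair of glutamate decarboxylases that make GABA from glutamate. *Gad1* was at 215, 168, 179 and 165 CPM in cKO mice 5, 7, S2 and F3, and at 90.7 to 157 CPM in ctrl, with a median of 113. Thus the ctrl and cKO ranges did not overlap, which held in this direction for 0.443% of all listed genes and, of these 9, for *Gad1* alone. That share includes genes without a count, which cannot separate the groups (27394 of 51912 had a count). The log2 fold change was 0.56 ± 0.14 (SE), with a 95% interval of 0.29 to 0.84 (edgeR, FDR = 0.0408). The summed level of 12 genes listed as striatal markers was 1282 to 1770 CPM in cKO and 687 to 1323 in ctrl, with overlap. *Ebf1* and *Foxp2* made up 89.2% to 94.2% of that sum over the 3 groups, and whether they come from striatal cells alone was not tested. The part of striatal tissue in the *Gad1* result was not tested. *Gad2* was at 399.6, 349, 377 and 287 CPM in the same cKO mice and at 164 to 343 CPM in ctrl, with a median of 277. Mice 5, 7 and S2 were above all ctrl mice, and mouse F3 was inside the ctrl range. Its log2 fold change was 0.35 ± 0.16 (95% interval 0.044 to 0.66) and did not pass (edgeR, FDR = 0.852). *Slc32a1*, which loads GABA into synaptic vesicles, was at 20.7, 20.8, 19.0 and 22.3 CPM in cKO and at 8.89 to 20.2 CPM in ctrl, with a median of 14.006. Mouse S2 was the cKO mouse inside the ctrl range, and the ctrl values rest on 4 to 32 counts a mouse. The log2 fold change was 0.61 ± 0.21 (95% interval 0.21 to 1.02), with an FDR of 0.382 in edgeR. The level of *Gad2* per kb of exon was 3.01 ± 0.554 times that of *Gad1* in ctrl, 2.53 ± 0.226 times in cKO and 2.74 ± 0.345 times in dKO. These ratios overlapped between the groups.

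**Figure D2:**
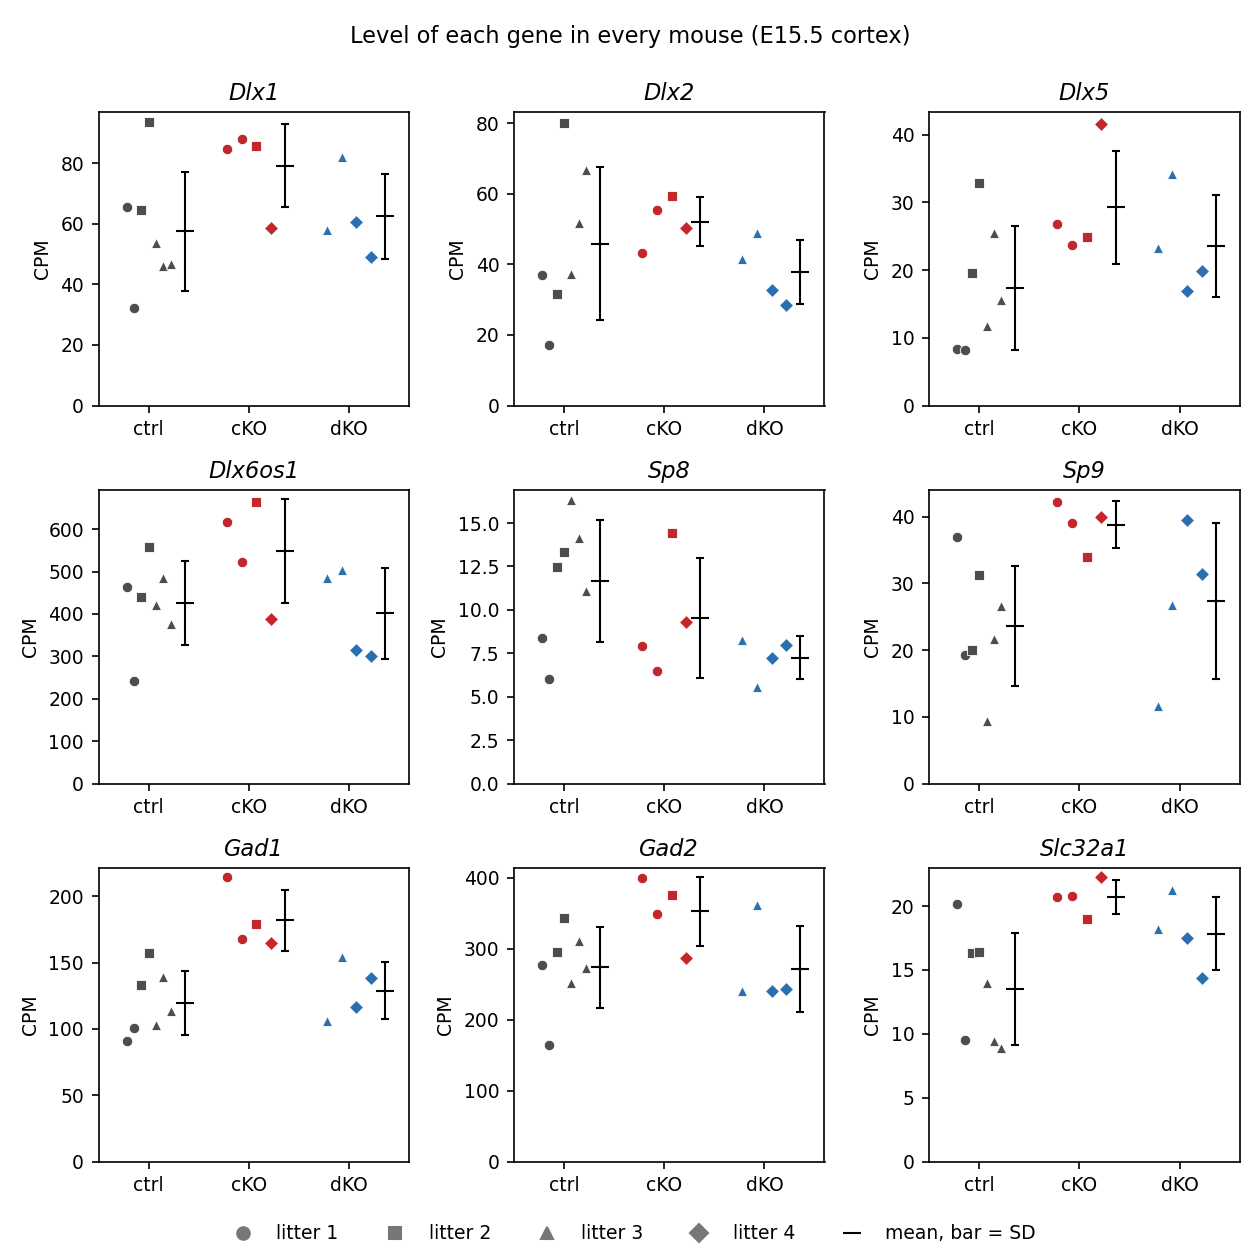
CPM of each of the 9 genes in every mouse by group, with the litter as the marker shape and the group mean with its SD at the side (7 ctrl, 4 cKO and 4 dKO mice). In *Gad1* the 4 cKO mice (165 to 215 CPM) lie above all ctrl mice (90.7 to 157), and in the other 8 genes cKO and ctrl overlap.

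None of the *Dlx* genes passed the test in cKO. *Dlx1* was at 84.7, 88.0, 85.7 and 58.6 CPM in cKO mice 5, 7, S2 and F3, and at 32.3 to 93.7 CPM in ctrl, with a median of 53.7. All 4 cKO mice were above the ctrl median, but ctrl mouse S3 was higher than any of them. Its log2 fold change was 0.43 ± 0.21 (95% interval 0.030 to 0.84; edgeR, FDR = 0.882). *Dlx2*, the partner of *Dlx1* in the early specification of interneurons, was at 43.3, 55.3, 59.4 and 50.2 CPM in cKO and at 17.1 to 79.9 CPM in ctrl, with a median of 37.4. The cKO mice were in the middle of a wide ctrl range, and the log2 fold change was 0.18 ± 0.26 (95% interval −0.33 to 0.70; edgeR, FDR = 1). *Dlx5*, which acts later in the same cascade, was at 26.8, 23.8, 24.9 and 41.6 CPM in cKO and at 8.23 to 32.8 CPM in ctrl, with a median of 15.6. Mouse F3 was above all ctrl mice and the other 3 cKO mice were inside the ctrl range. The log2 fold change of *Dlx5* was 0.67 ± 0.28 (95% interval 0.11 to 1.22; edgeR, FDR = 0.789), and 2 ctrl mice had 5 counts each. *Dlx6os1*, also called *Evf2*, is transcribed across an enhancer of the *Dlx5* and *Dlx6* pair. It was at 617, 521, 664 and 388 CPM in cKO and at 242 to 557 CPM in ctrl, with a median of 439.8. Mice 5 and S2 were above all ctrl mice and mouse F3 was below the ctrl median. The log2 fold change was 0.35 ± 0.18 (95% interval 0.00045 to 0.69; edgeR, FDR = 1).

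*Sp8* and *Sp9* encode related factors of interneurons from the lateral and caudal eminences and of the olfactory bulb, and *Sp8* is also expressed by cortical progenitors. Their log2 fold changes had opposite signs. *Sp9* was at 42.3, 39.0, 34.015 and 40.0 CPM in cKO mice 5, 7, S2 and F3, and at 9.34 to 37.0 CPM in ctrl, with a median of 21.6. The cKO mice lay close together at the top of the ctrl range, with mouse S2 below the highest ctrl mouse. The log2 fold change was 0.70 ± 0.18 (95% interval 0.34 to 1.05), the largest of the 9 genes, and missed the threshold (edgeR, FDR = 0.0617). The study's own list of edgeR calls in cKO, at the same threshold, holds both *Sp9* and *Gad1*. *Sp8* was at 7.92, 6.50, 14.4 and 9.32 CPM in cKO and at 6.01 to 16.3 CPM in ctrl, with a median of 12.5. Mice 5, 7 and F3 were below the ctrl median, and the log2 fold change was −0.21 ± 0.29 (95% interval −0.79 to 0.36; edgeR, FDR = 1). *Sp8* was the gene of the 9 with a negative value, and the ctrl values rest on 5 to 26 counts a mouse.

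The calls depended on the mice and the model. *Gad1* passed in 2 of the 11 fits that left out 1 mouse (without cKO S2 and without ctrl S3), with FDRs between 0.00849 and 0.495, and *Sp9* passed in 3 of them (without cKO S2, ctrl 2 or ctrl S3). Over all genes, 373 were called without cKO S2, 89 without ctrl 2 and 64 without ctrl S3, against 83 with every mouse. With litter as a covariate in edgeR, which compares 2 cKO with 2 ctrl mice in litter 1 and 1 with 2 in litter 2, 4 of the 9 genes passed, *Dlx1* (FDR = 0.0326), *Dlx6os1* (0.00199), *Gad1* (0.000269) and *Gad2* (0.00561), against 0.0963% of all genes called higher in that fit. Within batch 1 (3 cKO and 3 ctrl mice), the 9 log2 fold changes were between 0.12 (*Sp8*) and 0.67 (*Gad1*). None passed there (edgeR, FDR = 0.532 for *Gad1*), in a fit that called 13 of all genes. Without the mice of fewer than 1000000 counts (ctrl 2, T3 and T5), *Sp9* passed (edgeR, FDR = 0.0440; 0.0443% of genes were called higher) and *Gad1* did not (FDR = 0.417). Over these fits the log2 fold change of *Gad1* was between 0.47 and 0.67.

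**Figure D3:**
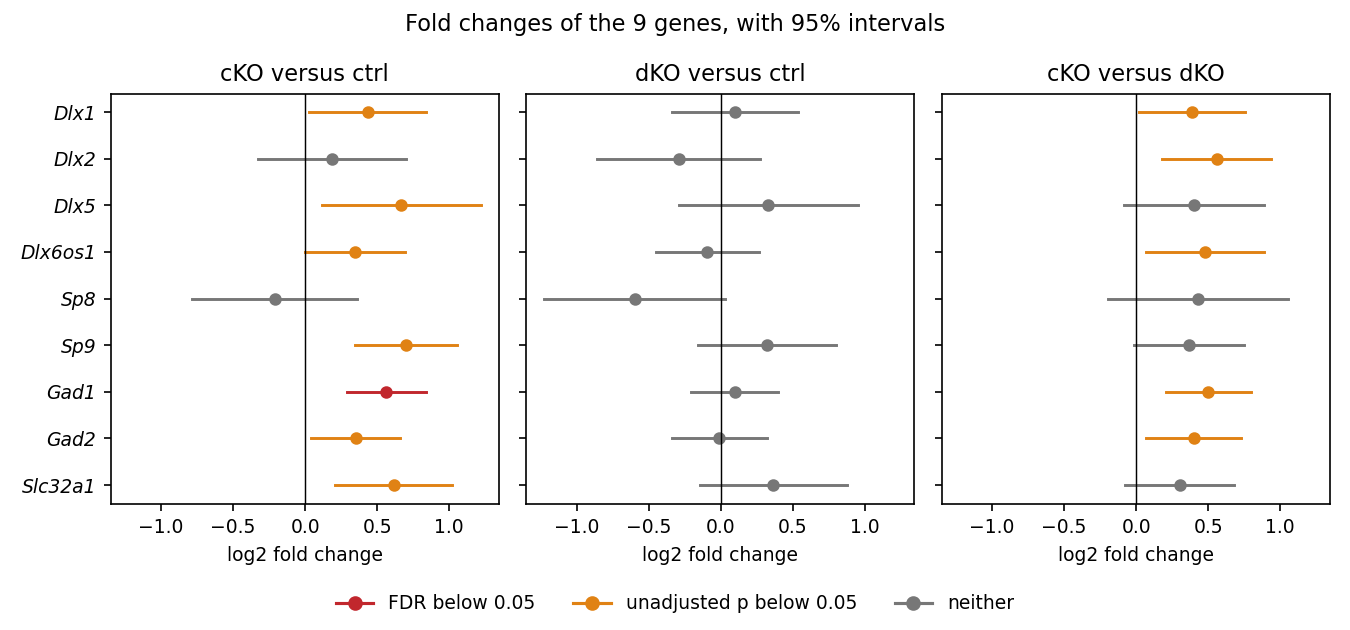
Log2 fold change of each gene (points) with its 95% interval (lines) in the 3 comparisons of edgeR's likelihood ratio test, red for an FDR below 0.05 and orange for an unadjusted p below 0.05. In cKO versus ctrl, *Gad1* (0.56) passes and *Sp8* (−0.21) is the gene below 0; in dKO versus ctrl the values lie on both sides of 0, and in cKO versus dKO all 9 are above 0.

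The dKO versus ctrl comparison asks what remains when *Trp53* is deleted together with *Knl1*; it shares its ctrl mice with the comparison above. None of the 9 genes passed an FDR of 0.05 (0.0501% of all listed genes did) and none was at an unadjusted p below 0.05 (3.32% were) in edgeR's likelihood ratio test or its quasi-likelihood test, and DESeq2 called none. The log2 fold changes were on both sides of 0, with 5 of 9 above it and a median of 0.097, where 53.5% of genes at 10 CPM or more were above 0 and their median was 0.014. *Gad1* was at 106, 154, 117 and 139 CPM in dKO mice T2, T8, F1 and F7, all within the ctrl range, and its log2 fold change was 0.10 ± 0.15 (95% interval −0.21 to 0.40). *Gad2* was at 240.4, 362, 240.6 and 243 CPM. Mouse T8 was above every ctrl mouse and the other 3 were below the ctrl median, and the log2 fold change was −0.0089 ± 0.17 (95% interval −0.34 to 0.32). *Slc32a1* was at 18.2, 21.3, 17.5 and 14.4 CPM, all above the ctrl median of 14.006, with a log2 fold change of 0.36 ± 0.26 (95% interval −0.15 to 0.87).

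Among the factors in dKO, *Dlx1* was at 58.02, 82.2, 60.7 and 49.1 CPM in mice T2, T8, F1 and F7, inside the ctrl range, with a log2 fold change of 0.098 ± 0.22 (95% interval −0.34 to 0.54). *Dlx2* was at 41.4, 49.0, 32.6 and 28.5 CPM (−0.29 ± 0.29; −0.86 to 0.28) and *Dlx6os1* at 486, 503, 315 and 301 CPM (−0.092 ± 0.18; −0.45 to 0.26). In both, the litter 3 mice T2 and T8 were higher than the litter 4 mice F1 and F7. *Dlx5* was at 23.2, 34.2, 16.9 and 19.8 CPM (0.33 ± 0.32; −0.29 to 0.96), all above the ctrl median of 15.6. *Sp9* was at 11.6, 26.8, 39.5 and 31.4 CPM (0.32 ± 0.24; −0.16 to 0.80), with T2 near the bottom of the ctrl range and F1 above it. *Sp8* was at 8.29, 5.54, 7.24 and 7.96 CPM, below the ctrl median of 12.5 in 4 of 4 mice. Its log2 fold change was −0.60 ± 0.32 (95% interval −1.23 to 0.033; edgeR, FDR = 1), the furthest from 0 of the 9, and rests on 5 and 6 counts in T2 and T8. Within batch 3 (4 dKO and 3 ctrl mice) the log2 fold changes ran from −0.92 (*Sp8*) to 0.71 (*Slc32a1*), and none passed.

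The cKO versus dKO comparison sets the single against the double deletion, with the same cKO and dKO mice. All 9 genes had a log2 fold change above 0, between 0.30 and 0.56 with a median of 0.40, where 64.8% of genes at 10 CPM or more were above 0 and their median was 0.061. None passed an FDR of 0.05 (0.0193% of all listed genes were called higher) and 5 were at an unadjusted p below 0.05, against 0.896% of all listed genes and 2.95% of those at 10 CPM or more. *Gad1* was again the single gene of the 9 whose groups did not overlap, as in 0.95% of all listed genes in this direction, those without a count included. The lowest cKO mouse in *Gad1* was at 165 CPM and the highest dKO mouse at 154. Its log2 fold change was 0.50 ± 0.15 (95% interval 0.21 to 0.80; edgeR, FDR = 0.303). *Dlx2* differed most (0.56 ± 0.19; 0.18 to 0.94; FDR = 0.565), with 3 of 4 cKO mice above every dKO mouse. *Dlx6os1* (0.48 ± 0.21), *Gad2* (0.40 ± 0.17) and *Dlx1* (0.39 ± 0.19) were the others at an unadjusted p below 0.05. *Sp8* (0.43 ± 0.32), *Dlx5* (0.40 ± 0.25), *Sp9* (0.37 ± 0.20) and *Slc32a1* (0.30 ± 0.19) had intervals that included 0. With edgeR's quasi-likelihood test *Gad1* passed (FDR = 0.0217; 0.0405% of genes were called higher), and with litter as a covariate *Dlx5* did (FDR = 0.00833; 0.0173%), although litter 4 is the one litter with both groups, so that this call rests on 1 cKO mouse against 2 dKO mice and assumes that the lone mouse varies like the others.

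All dKO mice were in batch 3, with a single cKO mouse, F3. Within batch 3, the cKO versus dKO log2 fold changes of *Dlx1* and *Dlx6os1* were −0.048 and −0.020, those of the other 7 genes were between 0.10 (*Gad2*) and 0.92 (*Dlx5*), and none passed. The part of batch in the difference between cKO and dKO was not tested beyond this 1 mouse.

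Littermates were compared as a description, since a litter held 1 to 3 mice a group. In litter 1, all 9 genes had a higher mean in cKO (mice 5 and 7) than in ctrl (mice 2 and 6), and in 8 of them both cKO mice were above both ctrl mice. Over the genes at 10 CPM or more these shares were 60.0% and 25.6%. *Dlx5* had the largest log2 ratio (1.60, from 25.3 against 8.31 CPM), *Gad1* had 1.00 (191 against 95.8 CPM), and *Sp8* had 0.0010. In litter 2, 8 genes had a higher value in cKO mouse S2 than the mean of ctrl mice S1 and S3, and in 6 S2 was above both, where the shares of genes at 10 CPM or more were 57.3% and 34.7%. The median log2 ratio of the 9 genes was 0.76 in litter 1 and 0.22 in litter 2. Ctrl mouse 6 was the lowest ctrl mouse in *Dlx1*, *Dlx2*, *Dlx5*, *Dlx6os1*, *Sp8* and *Gad2*, and without it the log2 fold changes in cKO versus ctrl were 0.29 for *Dlx1*, 0.0037 for *Dlx2*, 0.45 for *Dlx5*, 0.25 for *Gad2* and 0.51 for *Gad1*.

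In litter 4, cKO mouse F3 was above the mean of its dKO littermates F1 and F7 in all 9 genes and above both of them in 8, where the shares of genes at 10 CPM or more were 52.8% and 37.7%. The log2 ratios were largest for *Dlx5* (1.18) and *Dlx2* (0.72) and smallest for *Dlx1* (0.096). In litter 3, the dKO mice T2 and T8 had a higher mean than their ctrl littermates T3, T4 and T5 in 6 of 9 genes, as in 52.2% of genes at 10 CPM or more. Both dKO mice were above all 3 ctrl mice in *Dlx1* (log2 ratio 0.52), *Dlx6os1* (0.21) and *Slc32a1* (0.87), where 10.4% of those genes were, and both were below them in *Sp8* (−1.0025). F3 was the lowest of the 4 cKO mice in *Dlx1*, *Dlx6os1*, *Gad1* and *Gad2* and the highest in *Dlx5* and *Slc32a1*.

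**Figure D4:**
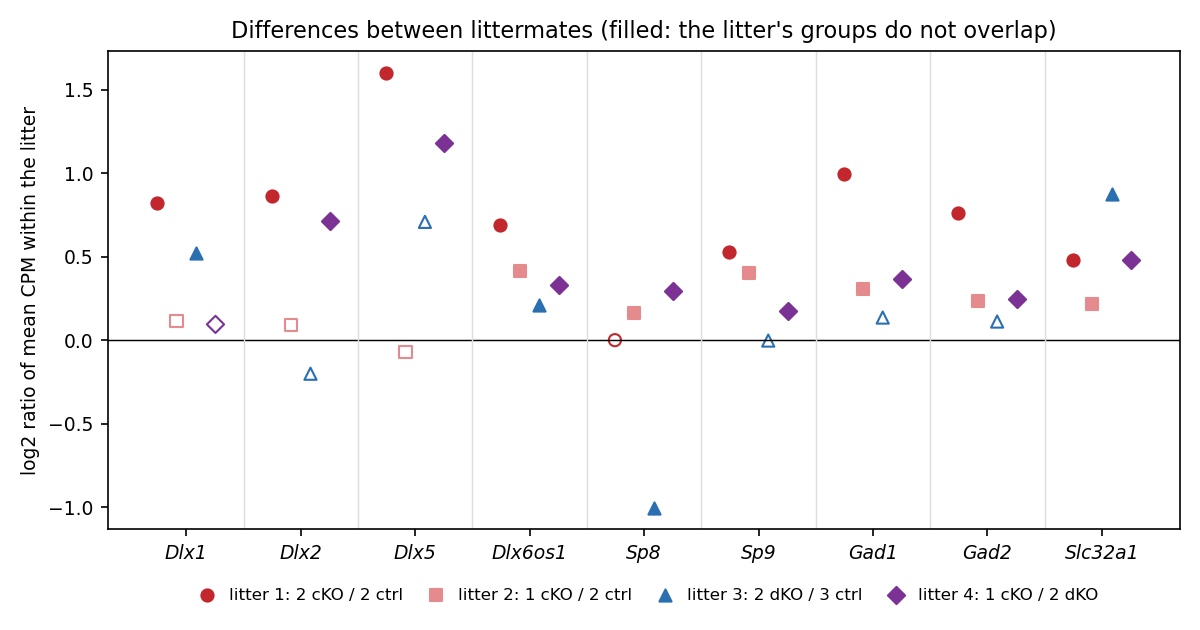
Log2 ratio of mean CPM between littermates for each gene, with cKO over ctrl in litters 1 and 2, dKO over ctrl in litter 3 and cKO over dKO in litter 4; filled markers are genes whose groups do not overlap within the litter. Litter 1 lies above 0 for all genes (up to 1.60 for *Dlx5*), litter 4 likewise, and the lowest point is *Sp8* in litter 3 (−1.0025).

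Genes next to these in the pathway were described from fixed lists. The lists too were chosen with earlier results of these data known, so their calls are a description. Of 7 partner factors, among them *Dlx6*, *Dlx1as*, *Gsx1*, *Gsx2* and *Vax1*, none passed in cKO versus ctrl, 6 were above 0 and the median log2 fold change was 0.23. *Dlx1as*, transcribed from the opposite strand of *Dlx1*, was at 111 ± 21.0 CPM in ctrl, 143 ± 18.8 in cKO and 119 ± 23.4 in dKO (cKO versus ctrl 0.35 ± 0.14; edgeR, FDR = 0.581). It shares 335 exon bases, 6.21% of the exons of *Dlx1*. Of 10 genes for GABA uptake, breakdown, reception and chloride transport, none passed, 9 were above 0 and the median was 0.18. The 3 with the largest values among those at 10 CPM or more were *Gabbr2*, a subunit of the metabotropic GABA receptor (0.41 ± 0.19), the GABA transporter gene *Slc6a11* (0.38 ± 0.24) and *Gphn*, the scaffold of inhibitory synapses (0.37 ± 0.13; edgeR, FDR = 0.514). Exon overlaps with other genes touch 3 more of the 9: 9.49% of the exon bases of *Dlx6os1* (with small RNAs), 5.35% of *Sp9* (with *Cir1*) and 24.9% of *Slc32a1* (with the antisense *Gm14205*, which was at 1.09 CPM or less in every mouse). Whether the counting used strand is not given in the sources used here, and without it reads from such stretches cannot be told apart.

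Of 15 genes of migrating interneurons, *Erbb4*, the neuregulin receptor that guides them, rose in cKO from 1723 ± 199 to 2581 ± 579 CPM (0.56 ± 0.14; edgeR, FDR = 0.0361). This call was kept in 4 of 11 fits without 1 mouse (FDR = 0.786 without cKO mouse 5) and in 8 of 14 other alternatives, and it was lost with RLE factors (FDR = 0.0782), without TMM (0.189), with batch as a covariate (0.226), in batch 1 alone (1), against wild-type ctrl mice (0.262) and without the mice under 1000000 counts (0.221). In total 13 of 15 were above 0, with a median of 0.35. *Sst*, the neuropeptide somatostatin (0.83 ± 0.30; FDR = 0.529), and *Ackr3*, a chemokine receptor of migrating cells (0.72 ± 0.22; FDR = 0.238), did not pass in edgeR. The summed level of the 15 genes was 7390 to 9427 CPM in ctrl, 9597 to 13501 in cKO and 7728 to 8969 in dKO, with no overlap of cKO with the other groups. *Nrxn3* and *Erbb4* made up 81.3% to 90.2% of that sum, and the other 13 genes together were at 1174 to 1629 CPM in ctrl, 1164 to 1540 in cKO and 1162 to 1454 in dKO, with overlap. *Sox6* had the highest level of these 13, at 952 ± 129 CPM in ctrl, 780 ± 204 in cKO and 763 ± 114 in dKO. It was lower in cKO (−0.30 ± 0.15) and dKO (−0.32 ± 0.14) than in ctrl and did not pass. *Sox6* and *Cxcr4* (−0.029 ± 0.26) were the listed genes below 0 in cKO versus ctrl. The sum of the 13 genes thus follows *Sox6* more than the others. The summed level of the 9 genes was 599 to 1325 CPM in ctrl, 1062 to 1458 in cKO and 834 to 1238 in dKO, with overlap.

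Markers of neighboring ventral tissue were listed beside them. Of 12 genes listed as striatal, 12 were above 0 in cKO versus ctrl with a median of 0.47, and *Drd2*, a dopamine receptor, passed (1.12 ± 0.26; edgeR, FDR = 0.0199). Whether each of them is confined to striatal cells was not tested. *Drd2* was called in 6 of 11 fits without 1 mouse (FDR = 0.258 without cKO mouse 5) and in 9 of 14 other alternatives, but not with batch (FDR = 0.0757) or litter (0.123) as a covariate, in batch 1 alone (1), against wild-type ctrl mice (0.132) or without the mice under 1000000 counts (0.101). *Rxrg* (1.01 ± 0.34; FDR = 0.392) and *Ebf1* (0.44 ± 0.21; FDR = 0.907) did not. In dKO versus ctrl 11 were above 0 with a median of 0.49, and *Rxrg*, a nuclear receptor, passed (1.37 ± 0.31; edgeR, FDR = 0.0168). *Rxrg* was called in 5 of 11 fits without 1 mouse (FDR = 0.93 without dKO mouse F7) and in 6 of 12 other alternatives, and not with DESeq2 (adjusted p = 0.9997) or with litter as a covariate (edgeR, FDR = 1), where the median of the striatal genes was −0.26. The summed level of the 12 genes was 687 to 1323 CPM in ctrl, 1282 to 1770 in cKO and 1183 to 1336 in dKO, of which *Ebf1* and *Foxp2* made up 89.2% to 94.2%. The other 10 genes summed to 46.9 to 112 CPM in ctrl, 103 to 147 in cKO and 76.7 to 138 in dKO. Ctrl mouse 6 was lowest and cKO mouse 5 highest, and mouse 6 was lowest in the sum of the 9 genes too. Of the 3 markers of progenitors of the medial eminence none passed, and they summed to 7.91 to 63.0 CPM in ctrl, 4.50 to 43.2 in cKO and 22.0 to 56.4 in dKO, with *Nkx2-1* at −0.41 ± 0.49 and *Lhx8* at −0.55 ± 0.43. The part of striatal tissue in the levels of the 9 genes was not tested. Of 13 genes of the *hGFAP-Cre* lineage (12 with a count), 3 fell in cKO, *Eomes*, *Emx1* and *Neurog2*, a proneural factor of glutamatergic progenitors (fell by 1.19 on the log2 scale; edgeR, FDR = 0.00564), and the median was −0.42. *Eomes* was called in 11 of 11 fits without 1 mouse and 14 of 14 other alternatives, *Neurog2* in 8 and 12 of them and *Emx1* in 4 and 10.

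**Figure D5:**
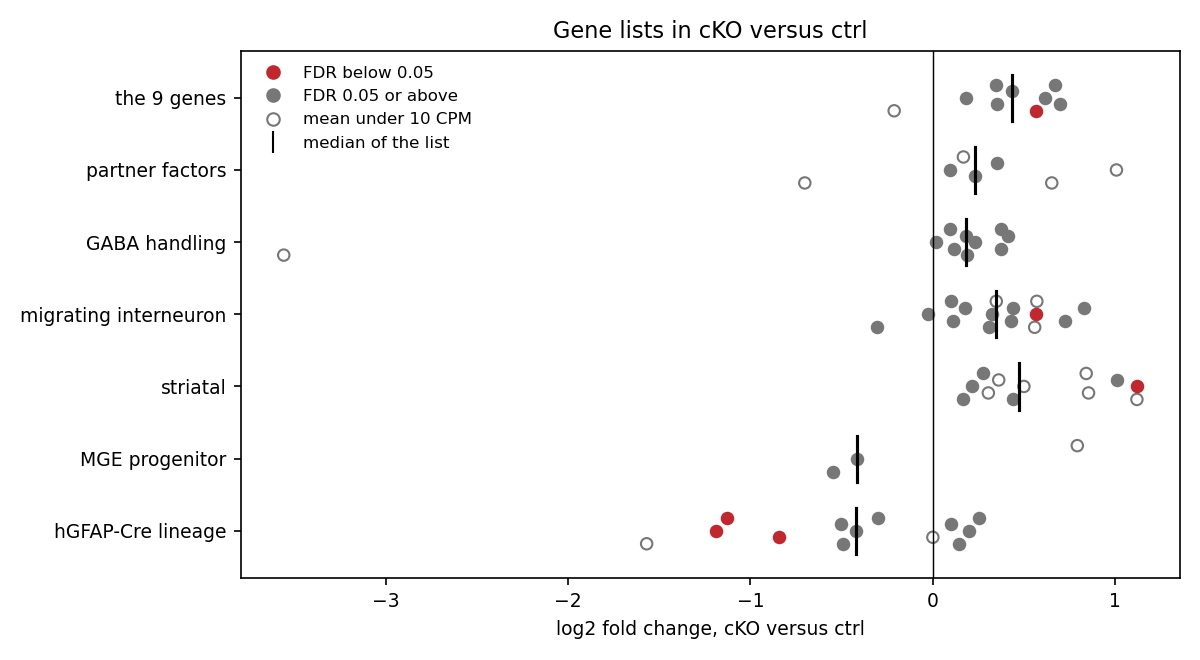
Log2 fold change in cKO versus ctrl of every gene of the lists (points; red for an FDR below 0.05, open for a mean under 10 CPM), with the median of each list as a bar. The 9 genes (median 0.43), the migrating interneuron genes (0.35) and the striatal genes (0.47) lie mostly above 0, and the *hGFAP-Cre* lineage (−0.42) mostly below.

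Over the 15 mice, the 9 genes varied together to different degrees. The 36 pairs had Pearson correlations of log2 CPM between −0.34 and 0.89 with a median of 0.49, and 34 were above 0. The closest pairs were *Dlx6os1* and *Gad2* (0.89), *Dlx1* and *Gad2* (0.86) and *Dlx1* and *Dlx6os1* (0.82). *Gad2* had the highest median correlation with the other 8 genes (0.71) and *Sp8* the lowest (0.046), with negative values against *Sp9* (−0.34) and *Slc32a1* (−0.28). The level of *Dlx6os1* per kb over that of *Gad2* was 1.76 ± 0.127 in ctrl, 1.75 ± 0.195 in cKO and 1.69 ± 0.408 in dKO. These correlations are a description: the points share libraries, litters and groups, and low counts in the shallow mice add noise to *Sp8*, *Sp9*, *Dlx5* and *Slc32a1*. Among 9170 other genes at 10 CPM or more, the 10 whose levels were most like the mean of the 9 genes included *Pid1*, *Stk33*, *Nrxn3*, *Bcl11b*, *Pou3f4*, *Maml3*, *Sox2ot*, *Dclk2* and *Pbx3*, with correlations between 0.81 and 0.87. *Nrxn3*, a presynaptic adhesion gene, was the member of the interneuron list among them, and its level was 5302 ± 720 CPM in ctrl, 7281 ± 1080 in cKO and 5350 ± 363 in dKO.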

How the data were processed

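UMI RNA-seq counts of E15.5 cortex were analyzed in 16 libraries of 15 mice. Per the labels and the methods of the study, the authors trimmed ClickSeq reads with cutadapt 1.13, aligned them with STAR 2.5.2a to GRCm38/mm10, collapsed PCR copies with UMI-tools 0.5.3 and counted them on genes with HTSeq 0.6.1p1 (intersection-nonempty). The deposited values are whole counts per gene and library, without normalization. Each UMI counts once, which limits PCR bias, and reads that fit several genes are left out of all of them. The annotation release and strand setting are not given in the sources used here.

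Groups, litters and batches came from the labels. Libraries S2 and S2b, of 1 cKO mouse, were summed. The 5 summary lines of each library were left out. Of 51912 identifiers, 51719 matched GENCODE M21, which gave symbols, coordinates and exon lengths. Each comparison was fitted on its 2 groups over all listed genes with edgeR 4.0.16 in R 4.3.3 (TMM, estimateDisp, glmFit, glmLRT, two-sided, no covariates), with Benjamini-Hochberg FDRs and a threshold of 0.05. SEs were derived from the likelihood ratio, and 95% intervals are 1.96 SEs on each side. CPM used TMM factors over all 15 mice, and correlations log2 CPM with a prior count of 2. Depth, between 399832 and 8800987 counts a mouse, sets the precision, and floors of 3 counts cover counting error only. The fit was tested on simulated data.

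The 9 genes and the lists were chosen with earlier results of these data known. Named besides the 9 genes are listed genes past the threshold, the 3 of each list with the largest change in cKO among those at 10 CPM or more, *Knl1*, *Trp53*, the 10 genes most alike over the mice, and genes with overlapping exons. Some genes that this rule names are not reported here. Alternatives were edgeR's quasi-likelihood test, DESeq2 1.42.0, RLE or no scaling factors, filterByExpr, all groups in one fit, batch, litter or sex as a covariate, wild-type ctrl or single batches only, S2 or S2b alone, and leaving out each mouse. Leaving out the 4 mice under 1000000 counts was added after seeing the data. Promoters are from RefSeq (GRCm38.p6). Python 3.11.15 and matplotlib 3.10.9 made the figures.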

Additional observations from a re-analysis of the deposited data

Results flagged for a closer look

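Among 27 sets of values (9 genes in 3 groups), 2 had a mouse set apart from the others by the size of its gap, and chance alone gives such a gap in about 1 of 20 sets. *Dlx1* in cKO was at 58.6 CPM in mouse F3 and at 84.7 to 88.0 CPM in the other 3 cKO mice. F3 was the single cKO mouse of batch 3 and of litter 4, and its dKO littermates F1 and F7 were at 60.7 and 49.1 CPM. *Gad2* in dKO was at 362 CPM in mouse T8 and at 240.4 to 243 CPM in the other 3 dKO mice. T8 was also the highest dKO mouse in *Dlx1*, *Dlx2*, *Dlx5*, *Dlx6os1*, *Gad1* and *Slc32a1*, and the lowest in *Sp8*.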

How the results depend on the processing

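In cKO versus ctrl, where 1 of the 9 genes passed, none did with RLE factors or without TMM, with batch as a covariate, in batch 1 alone or against wild-type ctrl mice only (0 each), while 2 did with the quasi-likelihood test, filterByExpr, sex as a covariate or S2 or S2b alone, and 4 did with litter as a covariate. Leaving out 1 mouse at a time gave between 0 and 2. The FDR of *Gad1* was 0.0791 with RLE factors, 0.239 without TMM, 0.0892 with batch as a covariate and 0.119 against wild-type ctrl mice, and its log2 fold change was between 0.46 and 0.67 over all alternatives. DESeq2 called *Gad1* (adjusted p = 0.0371). Over all genes, 30 of 83 calls were higher in cKO, 17 of 108 without TMM and 23 of 96 with RLE factors. They were 189 of 352 with the quasi-likelihood test, 31 of 138 with filterByExpr and 39 of 113 with sex as a covariate. With litter as a covariate they were 50 of 120, with S2 alone 38 of 98 and with S2b alone 33 of 87. With batch as a covariate they were 18 of 77, in batch 1 alone 6 of 13 and against wild-type ctrl mice 10 of 16. In dKO versus ctrl, 0 of the 9 genes passed under each alternative. In cKO versus dKO, 1 passed with the quasi-likelihood test and 1 with litter as a covariate, where 1 cKO mouse and 2 dKO mice of litter 4 carry the comparison, and none when any 1 mouse was left out. The cause of these changes was not tested.

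Of 621 log2 fold changes under alternatives, 571 kept their direction and side of the threshold and 21 changed sign, none of them past the threshold. *Sp8* in cKO versus ctrl was 0.12 in batch 1 alone and 0.15 with litter as a covariate. In dKO versus ctrl, *Dlx1* was −0.0027 against wild-type ctrl mice, *Dlx6os1* was 0.21 with litter as a covariate, and *Gad2* was 0.13 with litter as a covariate, 0.026 against wild-type ctrl mice and 0.015 without mice under 1000000 counts. Without 1 mouse, these 3 genes ranged from −0.062 to 0.29, from −0.23 to 0.032 and from −0.18 to 0.055. In cKO versus dKO, *Dlx1* was −0.048 in batch 3 alone and −0.038 with batch as a covariate, and *Dlx6os1* −0.020 and −0.018. No scaling choice changed a sign. Depth limits *Sp8*, *Sp9*, *Dlx5* and *Slc32a1*, which had 4 to 7 counts in the shallowest ctrl mouse, T3. The labels pair mice by litter, so the fit with litter as a covariate is the blocked analysis, in which 4 of the 9 genes passed in cKO versus ctrl. That fit rests on litters 1 and 2, where the median log2 ratio of the 9 genes was 0.76 and 0.22.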

Other observations

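Markers of other cells of the tissue were read from the same fits. None of 8 microglial and 6 endothelial genes passed an FDR of 0.05 in any comparison (edgeR's likelihood ratio test), and the microglial genes summed to 7.60 to 26.7 CPM in ctrl, 12.5 to 25.0 in cKO and 12.012 to 24.9 in dKO. Of 6 erythroid genes, *Hba-a2*, an alpha globin, rose in dKO versus ctrl (log2 fold change 1.98 ± 0.45 (SE); FDR = 0.0203), at 2.38 ± 1.63 CPM in ctrl and 8.15 ± 1.48 in dKO. That call was lost with DESeq2 (adjusted p = 0.745), the quasi-likelihood test (FDR = 0.0555), sex (0.0521), litter (1) or batch (1) as a covariate, in batch 3 alone (1) and in 4 of 11 fits without 1 mouse. Of 7 genes of choroid plexus and meninges, *Ttr*, which choroid plexus secretes as a carrier of thyroid hormone, fell by 5.61 on the log2 scale in cKO versus ctrl (SE 1.21; edgeR, FDR = 0.00652) and by 5.02 in cKO versus dKO (FDR = 0.000404), at 20.6 ± 24.9 CPM in ctrl, 0.386 ± 0.433 in cKO and 13.99 ± 11.9 in dKO. Its call against ctrl was lost with DESeq2 (adjusted p = 0.108), in batch 1 alone (edgeR, FDR = 0.178), against wild-type ctrl mice (0.0688) and in 2 of 11 fits without 1 mouse, and its call against dKO with litter (0.128) or batch (0.762) as a covariate, in batch 3 alone (0.902) and with all groups in one fit (0.0743). Their summed level was 1.09 to 72.4 CPM in ctrl, 1.71 to 4.32 in cKO and 3.30 to 85.0 in dKO, and the ctrl mice 2, S1 and S3 were as low as the cKO mice or nearly so.

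*Dlx6*, a protein-coding gene on the opposite strand, overlaps the span of *Dlx6os1* but shares no exon base with it. The level of *Dlx6* was 7.49 ± 7.32 CPM in ctrl, 9.28 ± 2.69 in cKO and 8.91 ± 2.31 in dKO, with 0 counts in ctrl mouse T5. The level of *Dlx1as* per kb of exon was 6.99 ± 2.52 times that of *Dlx1* in ctrl, 6.05 ± 0.635 times in cKO and 6.44 ± 1.51 times in dKO. Before division by exon length, the ratio of counts in ctrl was 1.08 (mouse 2) to 3.06 (mouse 6). With the strand setting and the counting of introns not known, such ratios do not measure transcript abundance. The 2 libraries of cKO mouse S2 gave close counts for the 9 genes, for example 777 and 800 for *Gad1* and 1658 and 1652 for *Gad2*.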
